A study of Mus musculus with 2 samples.

Results

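The genes described here control cell death and the p53 response: the BCL2 family, the caspases and their adaptors, death receptors, inflammasome and necroptosis genes, and targets of the tumour suppressor p53. They were chosen by name, as a list of 50 genes grouped by role, and measured by every probe set whose platform annotation named 1 of them and no other gene. Probe sets were found for 48 of the 50, out of 30142 genes measured in this way on the arrays. Bax and Trp53, which encodes p53 itself, were not analysed here.

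RNA came from the livers of untreated PiZ mice, killed at 3 months of age after standard chow. PiZ mice are C57BL/6 animals that carry the human gene for mutant alpha-1-antitrypsin Z (ATZ) with its own human promoter, and the mutant protein collects in hepatocytes as globules. Areas with globules and areas without them were recognised in frozen sections stained with Cresyl Violet and cut out by laser. The study holds 1 array of globule-containing areas and 1 array of globule-free areas, each made from RNA pooled from 2 mice. Both groups carry the transgene, no mouse without it was part of the comparison, and the sources used here do not say whether the same mice gave both pools. The captured pieces of tissue can hold other cells beside hepatocytes.

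Apoptosis through mitochondria is set by the balance of BCL2 family proteins: anti-apoptotic members hold back the pore-forming ones, and BH3-only proteins release them. Pores let cytochrome c out, which assembles APAF1 and caspase-9 into the apoptosome, while death receptors such as Fas reach caspase-8 directly. Inflammatory caspases instead cut gasdermin D, MLKL ruptures the membrane in necroptosis, and p53 induces genes of arrest, repair and death after damage. In liver, hepatocyte death by these routes is a known step in chronic injury.

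The values are log2 signals, and a difference is the globule-containing value minus the globule-free one. Each group being 1 array, there is no replicate check, so no test was run, no difference carries an error, and the arrays and the groups cannot be told apart. Of the 48 genes, 40 had a mean signal of 4.76 or more, a floor set at the median over all probe sets that name 1 gene. Globule-containing tissue was higher by 2-fold or more for 7 of these 40 and lower by that much for none. Over all 15023 genes at or above the floor, 6.47% were higher by this rule and 5.26% lower. With no floor the counts for the 48 genes were again 7 and 0, against 3.41% and 2.87% of all 30142 genes, 6.28% together. The difference was above 0 for 38 of the 48, against 41.8% of the 30142. These shares do not compare like with like. On the globule-containing array 15752 of the 30142 genes lay at background, against 9 of the 48. The 7 genes were Bcl2a1a, Casp12, Tnfrsf12a, Mlkl, Trp53inp1, Ccng1 and Casp4. After quantile normalization or loess correction of the arrays the differences of Casp4 and Ccng1 were 0.97 to 0.99, just short of 2-fold, and the count was 5. By the deposited values a further 4 genes, Casp1, Ei24, Cflar and Pycard, lay between 1.5-fold and 2-fold apart, and 29 lay within 1.5-fold. Of these 4, Pycard had a globule-free signal at background and was at least 1.26-fold higher, and the 2 probe sets of Cflar disagreed. The difference was positive for 32 of the 40, against 54.5% of all genes at or above the floor, and the median was 0.26, against 0.05. These 32 include 6 genes, Bik, Apaf1, Fadd, Pycard, Gadd45a and Gadd45g, whose globule-free signal was under the floor, so they were counted only through their globule-containing signal. With dim values raised to background, Bik, Fadd, Gadd45a and Gadd45g were no longer positive, and the median was 0.15, against 0.02 over all genes. The count and the median therefore rest in part on dim signals, and a shift of the list was not tested. In tissue areas, fewer cells of a type and less RNA per cell cannot be told apart.

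**Figure D1:**
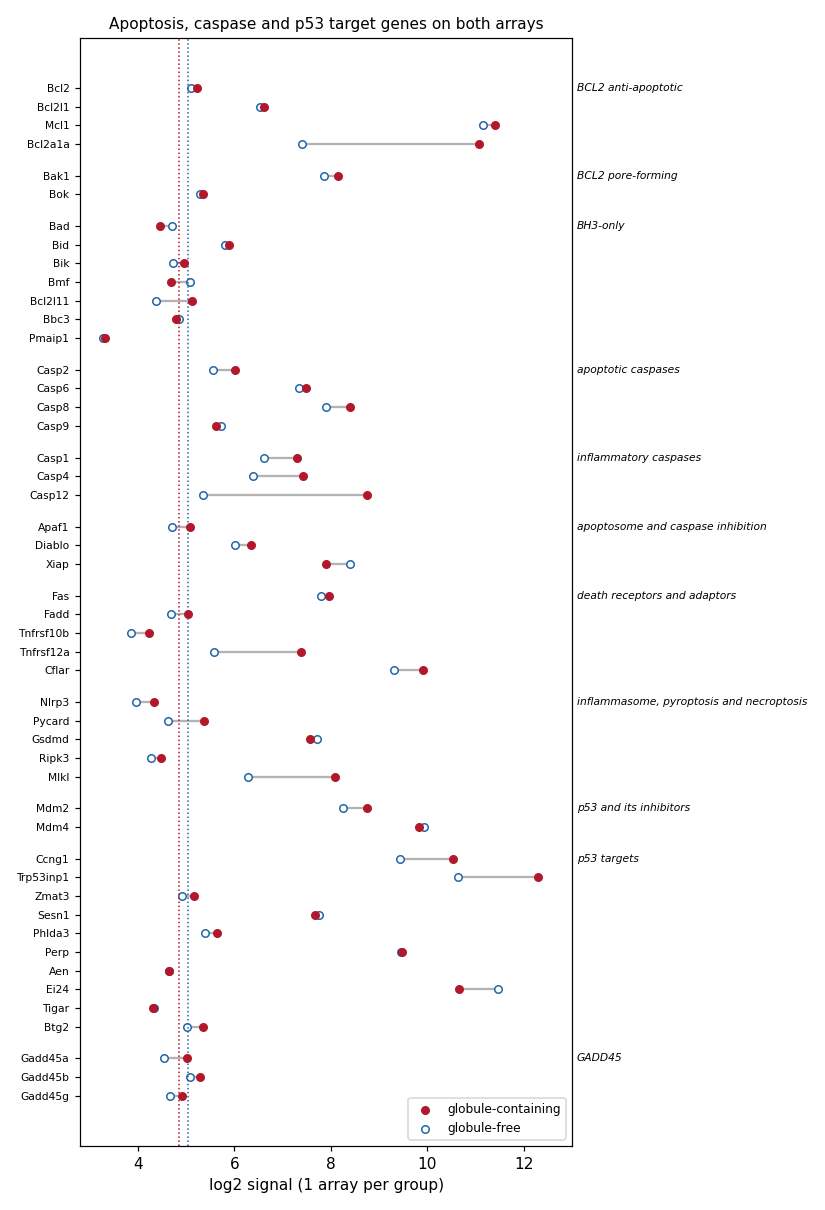
Log2 signal of each of the 48 genes in globule-containing (filled red) and globule-free areas (open blue), 1 array per group, grouped by role; dotted lines mark the background level of each array, 4.85 (globule-containing, red) and 5.04 (globule-free, blue). Bcl2a1a and Casp12 have the widest gaps, and most other pairs of points nearly touch.

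Olfactory and vomeronasal receptors, which most tissues do not express, set the background: it is the 95th percentile of their 1721 probe sets, 4.85 on the globule-containing and 5.04 on the globule-free array. All 7 genes that were at least 2-fold higher lay above this level on both arrays. In contrast, 10 of the 40 genes at or above the floor lay at background on at least 1 array. A globule-free signal under the floor was seen for 6 of the 40, which entered through their mean, and none of these was among the 7. The 8 genes under the floor were Bad, Bcl2l11, Pmaip1, Tnfrsf10b, Nlrp3, Ripk3, Aen and Tigar. Their differences are described with their roles.

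**Figure D2:**
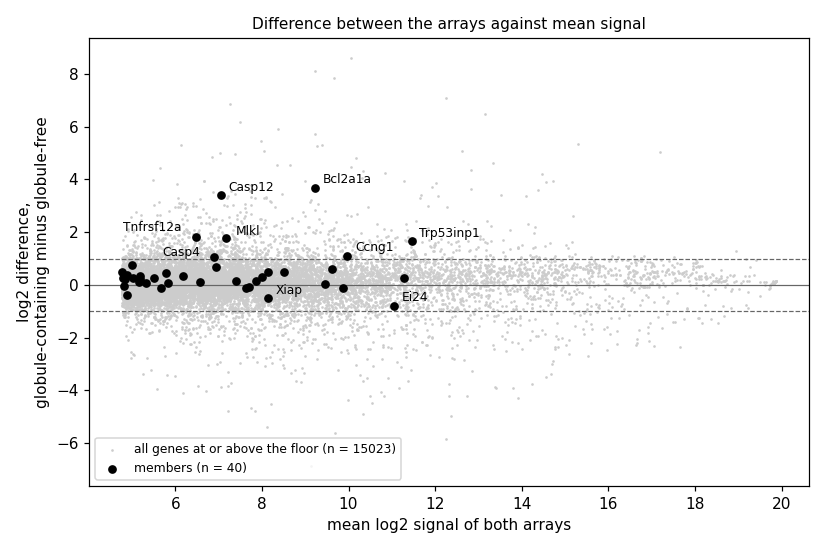
Log2 difference, globule-containing minus globule-free, against the mean log2 signal of both arrays, for the 40 genes at or above the floor (black) and all 15023 genes (grey); dashed lines mark 2-fold. The 7 labelled points at or above the upper line are the genes at least 2-fold higher, and Ei24 and Xiap are the lowest of the labelled points.

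Among the anti-apoptotic BCL2 genes, 1 of 4 was at least 2-fold higher, beside 6.47% of all genes at or above the floor. Bcl2a1a, which encodes the protein A1 of activated leukocytes, reached a log2 signal of 11.07 in globule-containing areas, against 7.39 in globule-free areas. It was 12.8-fold higher, the widest gap of all 48 genes, and ranked 43 from the top of 15023 genes. The classical survival genes showed no such gap. Mcl1, a short-lived inhibitor of apoptosis that hepatocytes need, had 11.41 in globule-containing tissue and 11.15 in globule-free tissue. Bcl2, the founding member of the family, had 5.23 in globule-containing tissue and 5.11 in globule-free tissue, close to background on both arrays. Bcl2l1, which encodes BCL-XL, had 6.62 in globule-containing tissue and 6.52 in globule-free tissue.

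The Bcl2a1 genes are near-identical neighbours on mouse chromosome 9, so their probes can share signal and the value of Bcl2a1a cannot be assigned to that gene alone. Bcl2a1d, a neighbouring copy, was 4.68-fold higher, with 8.72 in globule-containing tissue and 6.50 in globule-free tissue. A probe set that names both Bcl2a1a and Bcl2a1b had 9.39 in globule-containing tissue and 6.25 in globule-free tissue. All 3 probe sets were higher in globule-containing areas, with differences of 3.68, 2.23 and 3.14. The 60 bases chr9:88956775-88956834 (plus strand, GRCm38.p6, RefSeq) just upstream of Bcl2a1a are shown because this gene had the widest gap and its promoter holds a match to the AP-1 motif TGANTCA, in capitals, from base -120 to -114 before the start.
Bcl2a1a: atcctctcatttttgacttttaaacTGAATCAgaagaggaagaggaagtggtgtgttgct
AP-1 matches on either strand were found in the 300-base windows of 3 of 43 listed genes that have a promoter in RefSeq, and of 8.97% of 27025 genes with one. The window of Bcl2a1a also held a match to TGATGNAA, the ATF4 and CHOP element, from base 5 to 12 after the start.

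**Figure D3:**
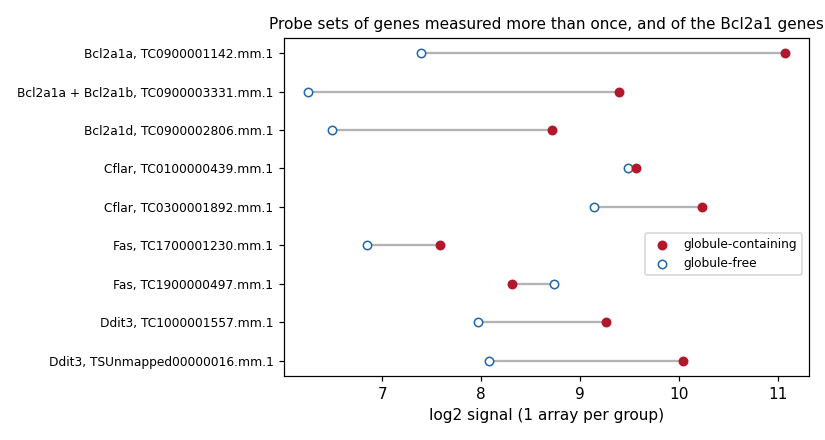
Log2 signal in globule-containing (filled red) and globule-free areas (open blue) for each probe set of the Bcl2a1 genes and of Cflar, Fas and Ddit3, which have more than 1 probe set. The 3 Bcl2a1 probe sets and both of Ddit3 are higher in globule-containing areas, while those of Fas point in opposite directions and those of Cflar differ in size.

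None of the listed pore-forming and BH3-only genes that were measured was 2-fold apart, but most BH3-only genes were too dim to compare. Of the pore-forming members, Bak1 had 8.14 in globule-containing tissue and 7.86 in globule-free tissue, and Bok had 5.34 in globule-containing tissue and 5.29 in globule-free tissue. The BH3-only genes, whose products sense stress and start the route, were dim. Of the 7, only Bid, which caspase-8 cuts to link death receptors to mitochondria, lay above background on both arrays, with 5.88 in globule-containing tissue and 5.79 in globule-free tissue. Bbc3 and Pmaip1, which encode the p53-induced killers PUMA and NOXA, lay at background on both arrays. Bbc3 had 4.78 in globule-containing tissue and 4.84 in globule-free tissue, and Pmaip1 had 3.31 in globule-containing tissue and 3.27 in globule-free tissue. Bad, a sensor of growth factor loss, also lay at background on both, with 4.45 in globule-containing tissue and 4.71 in globule-free tissue. Bcl2l11, which encodes BIM, had 5.13 in globule-containing areas, above background, and 4.38 in globule-free areas, at background, so it was at least 1.07-fold higher. Bik differed by 0.24 and Bmf by -0.39, each with 1 array at background.

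Of the 3 inflammatory caspases, 2 were at least 2-fold higher by the deposited values, beside 6.47% of all genes at or above the floor. Casp12, a rodent caspase bound to the endoplasmic reticulum (ER), had 8.75 in globule-containing areas, against 5.35 in globule-free areas. It was 10.5-fold higher and ranked 53 from the top of 15023 genes. Casp4, which encodes the mouse sensor of intracellular lipopolysaccharide also called caspase-11, had 7.42 in globule-containing tissue and 6.38 in globule-free tissue, 2.07-fold higher. Its difference was 0.97 after quantile normalization and 0.98 after loess correction, just short of 2-fold. Casp1, the protease that matures interleukin-1 beta, had 7.29 in globule-containing tissue and 6.61 in globule-free tissue, 1.60-fold higher and within 2-fold. Casp1, Casp4 and Casp12 follow one another on mouse chromosome 9 in the RefSeq gene order. The genes on either side showed smaller gaps, with a difference of -0.14 for Gria4, which lay at background on both arrays, and 0.52 for Pdgfd, which did so on the globule-free array.

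The windows upstream of Casp12 and Casp4 are shown because both genes of this cluster were at least 2-fold higher by the deposited values. The Casp4 stretch is chr9:5308731-5308790 and that of Casp12 is chr9:5345416-5345475, both on the plus strand of GRCm38.p6 from RefSeq, 60 bases each. Capitals in Casp4 mark overlapping matches to the NF-kB motif from base -93 to -83. The window of Casp12 held no match to any motif searched, which were the p53 decamer, AP-1, NF-kB and the ATF4 and CHOP element TGATGNAA, so it has no capitals.
Casp4: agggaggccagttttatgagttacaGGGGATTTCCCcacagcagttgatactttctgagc
Casp12: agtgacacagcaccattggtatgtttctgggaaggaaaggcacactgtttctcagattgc
NF-kB matches were found for 6 of 43 listed genes with a promoter and for 5.14% of all 27025. For TGATGNAA the counts were 3 of 43 and 4.51%. A match is a run of letters, and binding was not measured.

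The apoptotic caspases all lay within 2-fold. Casp8, the initiator at death receptors, had 8.40 in globule-containing tissue and 7.90 in globule-free tissue. Casp9, the initiator at the apoptosome, had 5.61 in globule-containing tissue and 5.73 in globule-free tissue. Casp2, a nuclear initiator, differed by 0.46 and Casp6, an executioner, by 0.13. Around the apoptosome, Apaf1, its scaffold, differed by 0.38 with its globule-free signal at background. Diablo, which is released from mitochondria and blocks caspase inhibitors, differed by 0.33. Xiap, a caspase inhibitor that Diablo opposes, went the other way, with 7.89 in globule-containing tissue and 8.40 in globule-free tissue, 1.42-fold lower.

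In the list of death receptors and adaptors, 1 of 4 genes at or above the floor was at least 2-fold higher. Over all genes the share was 6.47%. The gene was Tnfrsf12a, which the grouping used here places with the death receptors. It encodes Fn14, the receptor of the cytokine TWEAK, and had 7.38 in globule-containing areas, against 5.58 in globule-free areas, 3.49-fold higher. Fadd, the adaptor that joins Fas to caspase-8, had 5.03 in globule-containing areas and lay at background, at 4.68, in globule-free areas. Tnfrsf10b, the mouse TRAIL receptor, lay at background on both arrays, with 4.23 in globule-containing tissue and 3.86 in globule-free tissue.

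Fas and Cflar each had 2 probe sets that disagreed. For Fas, the death receptor best known for killing hepatocytes, the mean was 7.95 in globule-containing tissue and 7.79 in globule-free tissue. The probe set whose identifier carries chromosome 19, where RefSeq places Fas, had 8.32 in globule-containing tissue and 8.73 in globule-free tissue, a difference of -0.42. The other, whose identifier carries chromosome 17, had 7.59 in globule-containing tissue and 6.84 in globule-free tissue, a difference of 0.74. For Cflar, which encodes the caspase-8 regulator c-FLIP, the mean was 9.90 in globule-containing tissue and 9.32 in globule-free tissue. Its probe set on chromosome 1, the RefSeq chromosome of Cflar, had 9.57 in globule-containing tissue and 9.49 in globule-free tissue, a difference of 0.08. The probe set whose identifier carries chromosome 3 had 10.23 in globule-containing tissue and 9.15 in globule-free tissue, a difference of 1.09. Over all probe sets naming 1 gene for which both are known, 99.6% of 22634 identifiers carried the RefSeq chromosome of their gene. The difference of Fas therefore changes sign, and that of Cflar nearly vanishes, with the probe sets on the gene's own chromosome.

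Of the genes of lytic death, Mlkl was at least 2-fold higher. Mlkl, the membrane-rupturing effector of necroptosis, had 8.08 in globule-containing areas, against 6.29 in globule-free areas, 3.46-fold higher. Ripk3, the kinase that activates MLKL, lay at background on both arrays, with 4.49 in globule-containing tissue and 4.27 in globule-free tissue. Gsdmd, the pore former of pyroptosis, had 7.57 in globule-containing tissue and 7.70 in globule-free tissue. Pycard, the inflammasome adaptor ASC, had 5.37 in globule-containing areas, while its globule-free signal of 4.62 was at background. Nlrp3, an inflammasome sensor of macrophages, lay at background on both arrays, with 4.34 in globule-containing tissue and 3.96 in globule-free tissue.

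Of 8 p53 targets at or above the floor, 2 were higher by 2-fold or more and none was lower by as much, beside 6.47% and 5.26% of all genes. Trp53inp1, which encodes a nuclear protein that acts in p53 signalling and autophagy, had 12.29 in globule-containing areas, against 10.63 in globule-free areas, 3.16-fold higher. Ccng1, cyclin G1, had 10.52 in globule-containing tissue and 9.43 in globule-free tissue, 2.14-fold higher, but its difference was 0.99 after quantile normalization and 0.97 after loess correction. Ei24, a p53-induced membrane protein of the ER, had 10.66 in globule-containing tissue and 11.46 in globule-free tissue, 1.74-fold lower, the most negative difference of the 40. Perp, a desmosome protein and p53 effector, had 9.47 in globule-containing tissue and 9.45 in globule-free tissue. Sesn1, sestrin 1 of the antioxidant and mTORC1 response, had 7.66 in globule-containing tissue and 7.75 in globule-free tissue. Phlda3, an inhibitor of AKT, differed by 0.25. Btg2, an antiproliferative factor, differed by 0.34 and Zmat3, an RNA-binding protein, by 0.25, both with the globule-free signal at background. Aen, a nuclease, and Tigar, which lowers glycolysis, lay at background on both arrays, with differences of 0.01 and -0.01.

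The inhibitors of p53 differed by less than 1.5-fold. Mdm2, the ubiquitin ligase that degrades p53 and is itself a p53 target, had 8.75 in globule-containing tissue and 8.25 in globule-free tissue, 1.42-fold higher. Mdm4, its partner, had 9.82 in globule-containing tissue and 9.92 in globule-free tissue. The GADD45 genes of stress and DNA damage were dim and differed by 0.49 for Gadd45a, 0.21 for Gadd45b and 0.26 for Gadd45g. The globule-free signals of Gadd45a and Gadd45g were at background.

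Promoter windows of Ccng1, Mdm2, Gadd45a, Sesn1 and Ei24, a choice from the p53 pathway genes, are shown because these genes differed in direction. The p53 decamer, 1 of the 2 copies that make up a full p53 response element, was searched in windows from 250 bases before to 50 after each RefSeq start. It was found for 11 of 43 listed genes with a promoter and for 9.55% of 27025 genes. The 11 include Aen, a p53 target at background on both arrays, whose windows are not shown. A full element of 2 decamers at most 13 bases apart was found for none of the 43 and for 20 of 27025 genes. With so few matches over all genes, finding none among 43 says nothing about these genes. Elements outside the windows or with a mismatch were not searched. The stretches are chr11:40755437-40755496 (minus strand) for Ccng1, chr10:117710910-117710969 (minus) for Mdm2, chr6:67037413-67037472 (minus) for Gadd45a, chr10:41887241-41887300 (plus) for Sesn1 and chr9:36797335-36797394 (minus) for Ei24, all GRCm38.p6 from RefSeq. Each is written 5′ to 3′ on the strand of its gene, ends at or before the start, and has the decamer in capitals.
Ccng1: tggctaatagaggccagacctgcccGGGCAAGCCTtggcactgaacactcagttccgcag
Mdm2: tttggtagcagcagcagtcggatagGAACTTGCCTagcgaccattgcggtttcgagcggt
Gadd45a: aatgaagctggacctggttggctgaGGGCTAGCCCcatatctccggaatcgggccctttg
Sesn1: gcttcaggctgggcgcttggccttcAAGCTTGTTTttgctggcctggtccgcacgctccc
Ei24: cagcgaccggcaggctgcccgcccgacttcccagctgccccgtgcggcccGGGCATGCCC
These 5 genes had differences of 1.10 for Ccng1, 0.50 for Mdm2, 0.49 for Gadd45a, -0.08 for Sesn1 and -0.80 for Ei24, with the globule-free signal of Gadd45a at background. Of the other 4, Ccng1 and Mdm2 lay above 0 and Sesn1 and Ei24 below it. Trp53inp1 had no window in the table used.

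**Figure D4:**
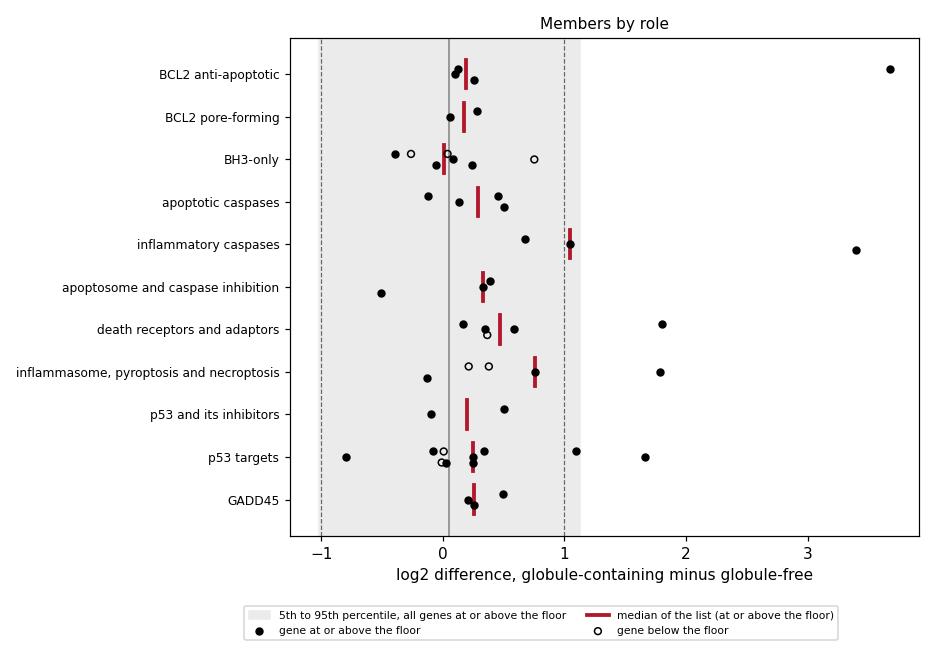
Log2 difference, globule-containing minus globule-free, of each gene by role; filled points lie at or above the floor, open points below it, red bars are medians of filled points, and dashed lines mark 2-fold. The grey band runs from -1.02 to 1.13, the 5th to 95th percentile of all genes at or above the floor, and the 5 points to the right of it are Bcl2a1a, Casp12, Tnfrsf12a, Mlkl and Trp53inp1.

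Other genes of the same pathways were taken from 6 lists. Of 92 genes listed, 83 were found and 62 lay at or above the floor. Of these 62, 11 were higher by 2-fold or more and 2 lower by as much, beside 6.47% and 5.26% of all genes, and their median difference was 0.32. Trib3, 1 of the 11, had a globule-free signal at background. For other p53 pathway genes, 3 of 21 were higher by 2-fold or more and none lower by as much. Cdkn1a, which encodes the cell cycle inhibitor p21, had 9.09 in globule-containing areas, against 6.39 in globule-free areas. Plk2, a stress-induced kinase, had 9.45 in globule-containing tissue and 7.82 in globule-free tissue, 3.09-fold higher. Plk3, its relative, was 2.37-fold higher. The median over the 21 was 0.38, below the difference of each of these 3 genes.

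ER stress genes known to act upstream of death genes had the highest median of the 6 lists, at 0.90. Of 10 at or above the floor, 5 were higher by 2-fold or more and none lower by as much, beside 6.47% and 5.26% of all genes. In 4 of them, Ddit3, Atf3, Atf6 and Eif2ak3, both signals lay above background. Ddit3, which encodes CHOP, an inducer of death genes under ER stress, had a mean of 9.65 in globule-containing tissue and 8.02 in globule-free tissue. Its 2 probe sets differed by 1.29 and 1.96. Atf3 and Atf6 were 4.56-fold and 3.27-fold higher. Eif2ak3, which encodes the ER stress kinase PERK, was 2.17-fold higher. Trib3, a CHOP target, had 5.63 in globule-containing tissue, and its globule-free signal of 4.17 was at background and under the floor, so a 2-fold gap is not shown. The rest of the list lay within 2-fold. Hspa5, Ern1, Xbp1 and Atf4 differed by 0.67, 0.50, 0.47 and 0.40. Ppp1r15a differed by -0.05, and Chac1 was at background on both arrays.

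The remaining lists are small, so 1 gene is a large share of each. Over all genes at or above the floor, 6.47% were higher by 2-fold or more and 5.26% lower by as much. Among other caspases, inhibitors and targets, 1 of 6 was at least 2-fold higher. Birc2, which encodes cIAP1, a ubiquitin ligase of TNF receptor complexes, had 8.61 in globule-containing tissue and 7.30 in globule-free tissue, while its relative Birc3 differed by 0.42 and Dffa, an inhibitor of the apoptotic nuclease, by -0.30. Among other BCL2 family and mitochondrial genes, 1 of 11 was at least 2-fold higher, the Bcl2a1d already described, and 1 at least 2-fold lower. Endog, a mitochondrial nuclease, had 7.58 in globule-containing tissue and 8.58 in globule-free tissue, and Bnip3, a mitophagy receptor, differed by -0.80. None of 6 other death receptor genes was 2-fold apart. The widest gap there was in Tnfsf10, which encodes TRAIL, with 5.34 in globule-containing tissue and 6.30 in globule-free tissue, and Tnfrsf1b and Cyld differed by 0.49 and 0.37.

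Of 8 other inflammasome genes at or above the floor, 1 was higher by 2-fold or more and 1 lower by as much. Over all genes the shares were 6.47% and 5.26%. Nlrp6, an inflammasome sensor of the gut epithelium, had 5.31 in globule-containing areas, against 7.66 in globule-free areas, 5.09-fold lower. Il1b, which encodes interleukin-1 beta, had 6.43 in globule-containing tissue and 5.26 in globule-free tissue, 2.25-fold higher. Il18, the other cytokine cut by caspase-1, had 5.59 in globule-containing tissue and 6.33 in globule-free tissue. Their median difference was -0.14.

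**Figure D5:**
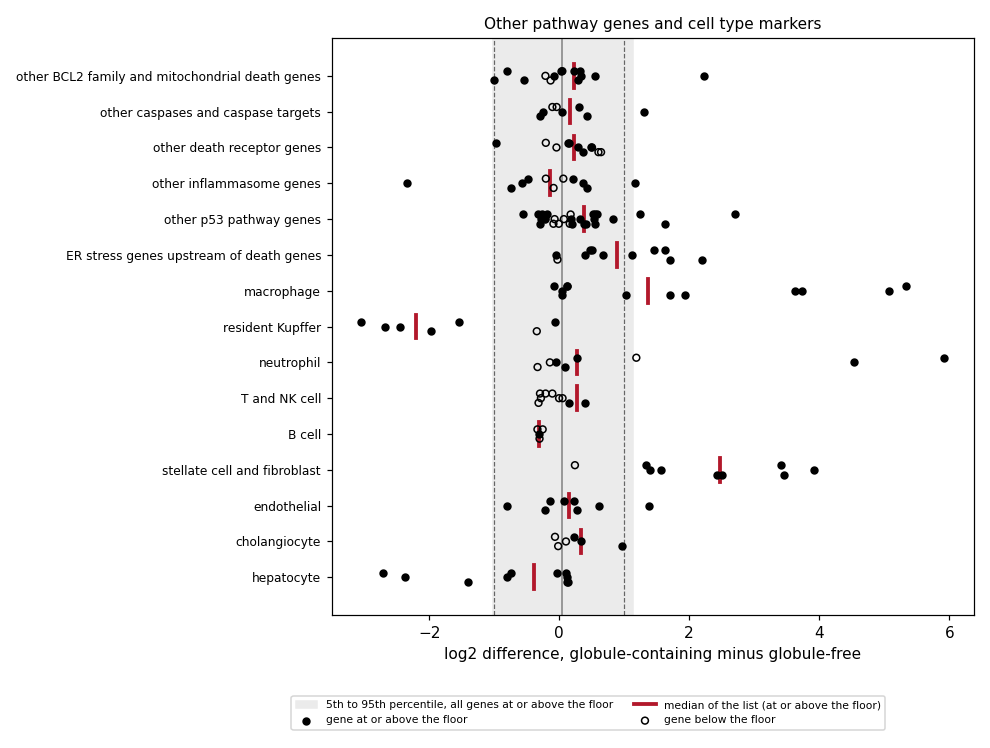
Log2 difference, globule-containing minus globule-free, of genes in 6 lists of other pathway genes and 9 lists of cell type markers, drawn as in the plot by role. ER stress, macrophage and stellate cell genes lie mostly to the right, and resident Kupffer cell genes to the left.

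Markers of other cells also differed between the arrays, beside the genes above. Several of those genes, among them Bcl2a1a, Casp1, Casp4, Pycard and Nlrp3, are known to be expressed by myeloid cells. Of 12 macrophage markers, 7 were at least 2-fold higher and none 2-fold lower in globule-containing tissue, beside 6.47% and 5.26% of all genes. Their summed linear signal was 332339.8 in globule-containing tissue and 11347 in globule-free tissue, with Lyz2 40.5-fold and Ctss 33.8-fold higher, and Lyz2 made up most of both sums. The other 5, Adgre1, C1qa, C1qb, C1qc and Aif1, differed by -0.08 to 0.12. Itgam was at background in globule-free areas, and the other 11 lay above background on both arrays. Resident Kupffer cell markers went the other way, with 5 of 6 at or above the floor at least 2-fold lower and summed signals of 1071 in globule-containing tissue and 5619.6 in globule-free tissue, over 7 genes. Clec4f was 8.28-fold and Cd5l 6.41-fold lower, and Cd163 was at background on both arrays. Of 5 neutrophil markers at or above the floor, 2 were at least 2-fold higher. The others, Csf3r, Ly6g and Camp, differed by 0.09, 0.27 and -0.04. S100a8 was 60.7-fold and S100a9 23.2-fold higher, while Mpo and Ngp were at background on both arrays, and the sums over 8 genes were 4711 in globule-containing tissue and 293.9 in globule-free tissue, with S100a8 and S100a9 most of the globule-containing sum.

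For stellate cells and fibroblasts, 8 of 8 markers at or above the floor were at least 2-fold higher, beside 6.47% of all genes. Their sums were 49677 in globule-containing tissue and 4582 in globule-free tissue over 9 genes. Lum was 15.2-fold higher, Lrat differed by 3.46, Des was at background on both arrays and Col1a2 on the globule-free array. Of 8 endothelial markers, 1 was at least 2-fold higher, Eng at 2.61-fold, beside the same 6.47% of all genes. Cdh5 differed by -0.80. The sums of the endothelial list were 4019 in globule-containing tissue and 2978 in globule-free tissue. Of 9 T and NK cell markers, 7 were at background on the globule-containing and 8 on the globule-free array, among them Cd3e and Cd8a on both. Nkg7 differed by 0.39 and Cd3g by 0.16, and the sums of the T and NK cell list were 190.4 in globule-containing tissue and 192.4 in globule-free tissue. Of 4 B cell markers, 3 were at background on both arrays, Cd79a and Ms4a1 among them. Cd79b differed by -0.31, and the sums of the B cell list were 89.5 in globule-containing tissue and 110.3 in globule-free tissue. Of 6 cholangiocyte markers, Krt7, Cftr and Tff2 were at background on both arrays. Epcam differed by 0.96 and Krt19 by 0.34, both with a globule-free signal at background, and the sums of the cholangiocyte list were 209.0 in globule-containing tissue and 164.4 in globule-free tissue. The part of any of these cells in the differences of the death and p53 genes was not tested.

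Hepatocyte RNA, the labelled cell type, was abundant on both arrays. Alb had 19.90 in globule-containing tissue and 19.80 in globule-free tissue, which is within 0.2 of each array's highest value, as were Apoa2 and Trf on both arrays and Ttr on the globule-free one. These 4 give no fold. Of the other 6 hepatocyte markers, 3 were at least 2-fold lower, beside 5.26% of all genes at or above the floor. Pck1, of gluconeogenesis, was 6.57-fold, Cps1, of the urea cycle, 5.17-fold and Tat 2.65-fold lower. The rest lay within 2-fold, with differences of 0.12 for Cyp2e1, -0.75 for Hnf4a and -0.80 for Apoa1. All 10 lay above background on both arrays. Their summed signals were 4833824 in globule-containing tissue and 5488728 in globule-free tissue, mostly from the 4 genes near the highest value, so the sums do not compare the areas. The part of hepatocyte content in the differences of the other genes was not tested either.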

How the data were processed

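Both samples were measured on 1-channel arrays with biotin-labelled cRNA. Per the labels' protocols, RNA was isolated with a Pico Pure kit and 50 ng was amplified with the NuGEN Ovation WTA System V2. The authors deposited 1 log2 value per probe set for 72688 probe sets, and the submitters' processing notes name the Transcriptome Analysis Console. No version is named. How the arrays were normalized, and on which build probe sets were placed, is not given in the sources, and the log2 scale was inferred from the values. Medians were 4.40 (globule-containing) and 4.49 (globule-free).

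Genes were named from the platform annotation. A gene was listed for 32750 probe sets. The 30604 that name 1 gene were used, and the 2146 that name several were not, except for the Bcl2a1 genes. Symbols were updated for 827 through Entrez IDs and RefSeq (GRCm38.p6). Probe sets of a gene were averaged, which gave 30142 genes. The floor was 4.76 on the mean of both arrays, and a gene counted as apart at 2-fold. Where 1 value lay at background the fold is a lower bound, taken from the background level. Counts use the deposited values. Arrays have no read depth, and having 1 per group limits the precision.

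No test was possible with 1 array per group. The genes, the lists and the background rule were chosen with earlier results of these data known. All 50 listed genes are accounted for. Both array values are given for those at least 2-fold apart for Casp8, Casp9, Bcl2, Mcl1, Mdm2 and Fas whatever their values, and for more where their role is described. The 3 widest gaps are named in each list of other pathway genes, with Cdkn1a, Ddit3 and Il1b named whatever their values, and the 2 widest in each marker list. Trib3, Eif2ak3, the rest of the ER stress list, Gria4, Pdgfd and markers at background were chosen after their values were seen. So were the further macrophage, neutrophil and hepatocyte markers. Promoter windows came from RefSeq and were searched on both strands, and the motifs other than the p53 decamer were added after the values were seen. The planned protein motifs were not searched. Scaling, floor, threshold, probe set choice and dim values were varied. The scripts were tested on simulated data. Software was Python 3.11.15, numpy 2.4.6, pandas 2.3.3, statsmodels 0.14.6 and matplotlib 3.10.9.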

Additional observations from a re-analysis of the deposited data

How the results depend on the processing

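The count of genes at least 2-fold higher was 7 of 40 as reported. It was 8 with the brightest probe set of each gene and 5 after quantile normalization or loess correction of the arrays. Cflar joined at 1.09 with its brightest probe set, whose identifier carries chromosome 3, while its chromosome 1 probe set differed by 0.08. Under quantile normalization Casp4 had a difference of 0.97 and Ccng1 of 0.99, and after loess correction they had 0.98 and 0.97, so both calls depend on the scaling, and the cause was not tested. At a threshold of 4-fold 2 genes were higher, Bcl2a1a and Casp12, and at 1.5-fold 10 were higher and 1, Ei24, lower, by the construction of the threshold. No alternative run at 2-fold made a gene lower. The median difference ran from 0.15, with dim values raised to background, to 0.39, with a floor at the 75th percentile of signal, and stayed positive in every setting. Over all genes the median was 0.02 with dim values raised and 0.10 with that higher floor. With probe sets on the chromosome of the gene only, an alternative chosen after seeing the data, the count was 7 and the median 0.25. Bcl2a1a, Casp12, Tnfrsf12a, Mlkl and Trp53inp1 stayed at least 2-fold higher under each scaling, probe set choice and treatment of dim values. No paired analysis was possible because each group is 1 array. Signals close to background limit what can be said of the BH3-only and GADD45 genes.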

Other observations

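A pair of matrix metalloproteinase genes lies a few genes beyond Casp12 in the RefSeq order of chromosome 9, chosen here after their values were seen. Mmp12, the elastase of macrophages, reached a log2 signal of 10.61 in globule-containing tissue and 6.08 in globule-free tissue, a difference of 4.53. Mmp13, a collagenase, had 6.53 in globule-containing areas and lay at background, at 4.29, in globule-free areas. Between them and Casp12, Dcun1d5 had 10.17 in globule-containing tissue and 10.64 in globule-free tissue, and Ddi1 and Dync2h1 lay at background on both arrays. Around Bcl2a1a, Mthfs differed by 0.21 and the Trim43 genes lay at or near background, while Tmed3, 5 genes away and a cargo receptor of the early secretory pathway, had 7.43 in globule-containing tissue and 5.74 in globule-free tissue.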
